A study of Mus musculus with 6 samples.

Results

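TGF-beta 1, the convertase that cuts its precursor, the receptors it binds, the SMAD proteins that carry its signal and the SKI repressors that hold SMADs in check were followed in cultured group 2 innate lymphoid cells (ILC2s) from mouse lung. The 10 genes Tgfb1, Furin, Tgfbr1, Tgfbr2, Smad2, Smad3, Smad4, Smad7, Ski and Skil were chosen by name, and 10 of 10 were present among the 17438 genes of the deposited table. RNA sequencing covered 2 genotypes with 3 libraries each: Cd48 KO (B6.129S4-Cd48tm1Rsr/EpaulJ, libraries KO1 to KO3) and WT (WT1 to WT3). Both genotypes carry the strain label CB57BL/6, both received IL-33, an alarmin that activates ILC2s, and every library came from sorted ILC2s recovered from culture, with 10 pg of RNA as input. The KO allele is a targeted germline mutation bred into C57BL/6 from a 129S4 background, and the labels name neither the age of the animals nor littermate controls. The study asked how loss of CD48, a GPI-anchored immunoglobulin-family protein on blood cells, alters lung ILC2s. No label states whether the 3 samples of a genotype are separate animals or cultures, so p-values here cover the spread among these samples alone, and that spread may be technical.

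TGF-beta 1 is made as a precursor that furin and related proteases of the secretory pathway cut into the mature cytokine and a latency peptide, which stay associated until the cytokine is released. The active dimer binds TGFBR2, which recruits and phosphorylates TGFBR1, and TGFBR1 in turn phosphorylates SMAD2 and SMAD3, which enter the nucleus with SMAD4. SMAD7 blocks the receptor and is itself induced by the pathway, while SKI and SKIL (also called SnoN) bind SMADs and repress their target genes. In the lung, TGF-beta has been described to act on ILC2s and on their progenitors.

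The cut that separates the latency peptide from the mature cytokine is encoded by exon 5 of 7 of the Tgfb1 transcript ENSMUST00000002678.9. It is shown because it is the point where 2 of the 10 genes meet: the product of one is cut by the product of the other. The stretch lies on the plus strand of chr7:25697211-25697270 (GRCm38), and capitals mark the 4 codons of the cleavage site, codons 275 to 278 of 390.
Tgfb1 cleavage site: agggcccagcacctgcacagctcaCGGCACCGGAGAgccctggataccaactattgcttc

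Furin has 2 RefSeq start sites, and the upstream one falls where an antisense gene, Gm44851, overlaps the locus, which bears on how Furin counts can be read. The promoter window of that start, from 250 bases before to 50 after it, lies on the minus strand of chr7:80405387-80405686 (RefSeq, GRCm38.p6). Capitals mark CAGAC, the SMAD box, which occurs at positions 88 and 207 counted from the 5′ end.
Furin upstream promoter: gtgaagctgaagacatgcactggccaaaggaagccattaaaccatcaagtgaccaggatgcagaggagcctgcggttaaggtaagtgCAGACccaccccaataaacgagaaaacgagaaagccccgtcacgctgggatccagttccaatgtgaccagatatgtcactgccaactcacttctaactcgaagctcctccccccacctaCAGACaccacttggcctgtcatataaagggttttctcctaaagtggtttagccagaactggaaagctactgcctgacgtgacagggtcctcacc

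Promoter windows were read for 6 of the 10 genes, which have 8 start sites between them. The SMAD box, searched as CAGAC on both strands, was found in both Furin windows, in the Tgfbr2 window and in the second of the Tgfbr1 windows, against 49.6% of all 32851 windows of the same length. No window of these genes held the palindromic SMAD element GTCTAGAC, the AP-1 motif TGANTCA, the STAT motif TTCNNNGAA, AGATAA as the GATA motif or an NF-kB motif. Those motifs occurred in 0.213%, 7.81%, 8.30%, 11.2% and 0.411% of all windows. These matches describe the letters only.

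The libraries held from 14928623 to 27450400 counts. Cd48 itself had 4.52, 5.59 and 4.40 CPM (counts scaled to a common library size) in Cd48 KO libraries, against 58.2, 46.6 and 41.6 CPM in WT libraries. All KO values lay below all WT values, as the genotype labels state (log2 fold change -3.33 ± 0.20 SE, adjusted p = 0.00285 by edgeR's quasi-likelihood test). All 12 ILC2 markers examined, among them Il5, Il2ra, Gata3 and Il1rl1, averaged at least 1 CPM, with summed levels of 13514 to 14349 CPM in KO libraries and 11825 to 15863 CPM in WT libraries. The overlap came from WT1 alone, since WT2 (12229 CPM) and WT3 (11825 CPM) lay below every KO library. Il5, the most abundant ILC2 marker at a mean of 7216 CPM, gave the largest part of these sums. Of the T cell list 6 of 12 genes averaged at least 1 CPM, led by Trbc2 and Lat, and their list summed to 188 to 203 CPM in KO libraries and 253 to 386 CPM in WT libraries. Trbc2, Lat, Trbc1 and Cd3g made up nearly all of that sum. Cd3d and Trac, of the same list, reached at most 0.574 and 0.349 CPM in any library. Cd4, Cd8a, Cd8b1 and Cd5 were not among the tabled genes. The epithelial list summed to 11.1 to 24.9 CPM in KO libraries and 32.1 to 85.4 CPM in WT libraries, with 7 of 11 genes at 1 CPM or more, led by Epcam and Scgb1a1. The macrophage and dendritic list, with 4 of 12 genes at that level and Chil3 at their head, overlapped between genotypes, at 15.01 to 126 CPM in KO and 54.5 to 244 CPM in WT. The T cell and epithelial sums were thus lower in every KO library, and their part in the results that follow was not tested.

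One library stood apart from the rest. WT1 differed from WT2 and WT3 by transcript length: the median log2 difference in CPM between WT1 and the mean of WT2 and WT3 was 0.28 for tested genes with transcripts under 1000 bases and -0.91 for those of 8000 bases and over. Each comparison is therefore given with and without WT1. With it, 13317 genes were tested and 4 of them (0.03%) passed an adjusted p under 0.05, 2 (0.015%) higher and 2 (0.015%) lower in Cd48 KO. Without it, 13643 genes were tested and 248 (1.82%) passed, 159 (1.17%) higher and 89 (0.652%) lower in Cd48 KO.

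None of the 10 genes differed between the genotypes at an adjusted p under 0.05, with or without WT1 (edgeR quasi-likelihood test, Benjamini-Hochberg adjustment over all tested genes). With all 6 libraries 5 genes had positive and 5 negative log2 fold changes, with a median of 0.09 beside -0.004 over all tested genes, and adjusted p from 0.690 to 0.830. Without WT1, 2 were positive and 8 negative, with a median of -0.05 beside 0.0005 over all tested genes, and adjusted p from 0.263 to 0.927. One of the 10 had an unadjusted p under 0.05 in each comparison, Smad4 with all libraries and Furin without WT1, where the share among all tested genes was 6.89% and 13.7%. In these bulk samples, fewer cells of a type and less RNA per cell cannot be told apart.

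**Figure D1:**
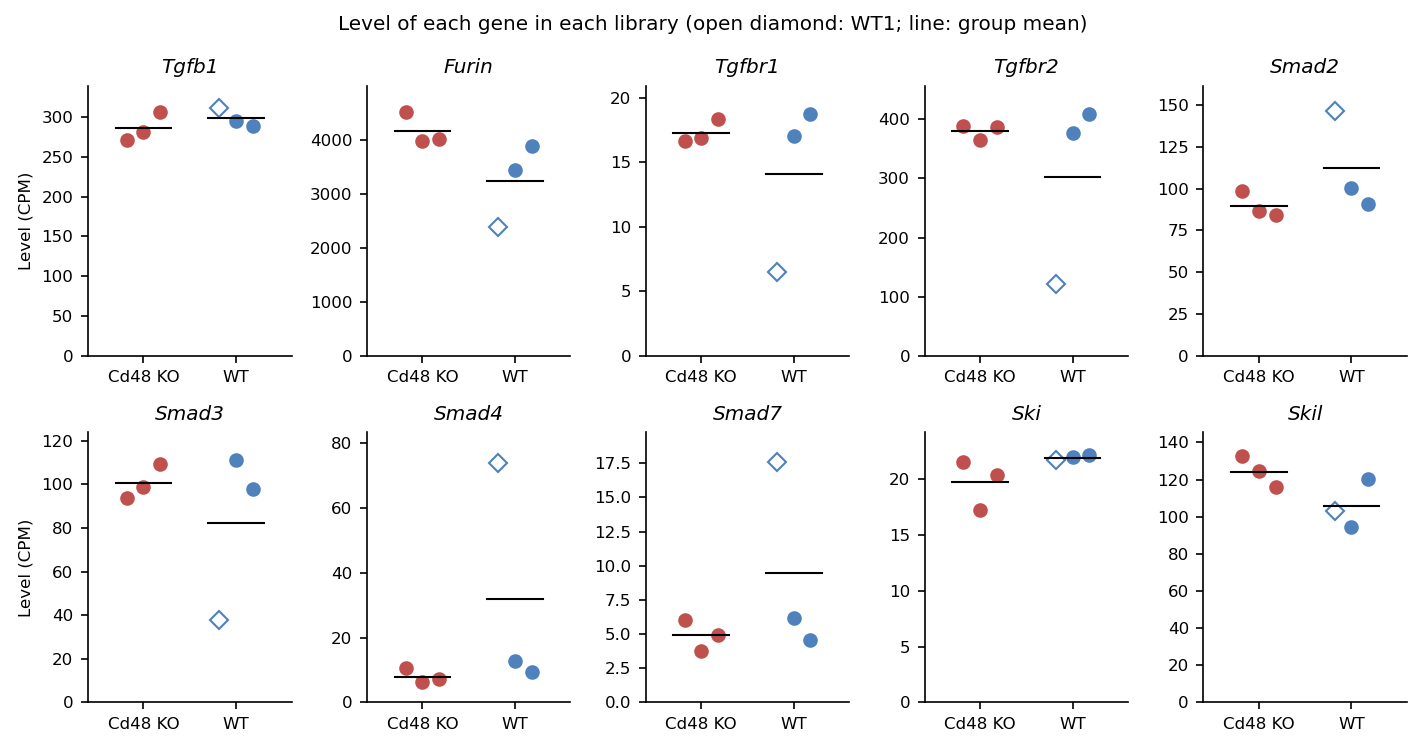
Level of each of the 10 genes in CPM on a linear axis from 0, one point per library, Cd48 KO on the left and WT on the right of each panel, with lines at the group means and WT1 as an open diamond. For Tgfbr1, Tgfbr2, Smad3 and Furin the WT1 point is the lowest of the panel, and for Smad2, Smad4 and Smad7 it is the highest, while the other 5 libraries lie closer together.

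Furin, the trans-Golgi protease that cuts proTGF-beta 1 and many other precursors, was the most abundant of the 10, also per kilobase of transcript. It took 0.452%, 0.400% and 0.403% of all counts in Cd48 KO libraries, against 0.228%, 0.345% and 0.394% in WT libraries, and ranked 10 among the 17438 genes by mean CPM, which is not corrected for length. Its levels were 4513, 3967 and 4006 CPM in KO libraries, against 2377, 3435 and 3882 CPM in WT1, WT2 and WT3. Every KO library was above every WT library, although KO2 and WT3 were close, and WT1 was far below the rest. The KO mean was 4162 ± 305 CPM and the WT mean 3232 ± 773 CPM (SD, n = 3 each). The log2 fold change was 0.36 ± 0.19 SE (95% interval -0.08 to 0.81, adjusted p = 0.690 by edgeR) with all libraries and 0.19 ± 0.07 (0.03 to 0.34, adjusted p = 0.263) without WT1. The interval without WT1 spans folds of 1.02 to 1.27, and the difference did not pass the adjustment over all genes. It rested in part on single libraries: the log2 value without WT1 was 0.0965 (adjusted p = 0.689) when WT2 was also left out and 0.273 (adjusted p = 0.138) when WT3 was.

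Gm44851, the antisense gene, shares 1168 bases with Furin (GRCm38 chr7:80404269-80405436), and whether reads were counted by strand is not given in the sources used here, so reads of the 2 genes cannot be told apart there. Gm44851 had 53.6, 50.8 and 37.2 CPM in Cd48 KO libraries, against 12.8, 37.5 and 43.8 CPM in WT libraries. Its groups overlapped, it was lowest in WT1 as Furin was, and its counts were a small fraction of those of Furin. The log2 fold change of Gm44851 was 0.58 ± 0.43 SE (adjusted p = 0.696 by edgeR) with all libraries and 0.21 ± 0.15 (adjusted p = 0.615) without WT1.

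Tgfb1, the ligand, had similar levels in all 6 libraries. It had 270, 281 and 306 CPM in Cd48 KO libraries, against 312, 295 and 288 CPM in WT libraries. The ranges overlapped, and WT1 did not stand apart for this gene. Its mean was 286 ± 18.5 CPM in KO and 298 ± 12.1 CPM in WT (SD, n = 3 each). The log2 fold change was -0.06 ± 0.10 SE with all libraries (95% interval -0.31 to 0.19, adjusted p = 0.830 by edgeR) and -0.02 ± 0.07 without WT1 (-0.17 to 0.12, adjusted p = 0.926). These intervals correspond to folds of 0.809 to 1.14 with all libraries and 0.891 to 1.09 without WT1, where WT rests on 2 libraries. Within those 5 libraries, leaving out KO3 moved the log2 value to -0.0843, so the narrower interval is no firm bound.

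The 2 receptor chains differed in level per kilobase of transcript, with means of 47.0 CPM per kilobase for Tgfbr2 and 3.003 for Tgfbr1 in Cd48 KO libraries. Tgfbr2, which binds the ligand, had 389, 365 and 387 CPM in Cd48 KO libraries, against 121, 377 and 408 CPM in WT libraries. Tgfbr1, the signalling chain, had 16.7, 16.8 and 18.3 CPM in KO libraries, against 6.49, 17.0 and 18.7 CPM in WT libraries. In both genes WT1 alone was low, and WT2 and WT3 overlapped the KO range. With all libraries the log2 fold changes were 0.33 ± 0.41 SE for Tgfbr2 (adjusted p = 0.766 by edgeR) and 0.29 ± 0.37 for Tgfbr1 (adjusted p = 0.772). Without WT1 both were slightly negative, at -0.04 ± 0.06 for Tgfbr2 (95% interval -0.17 to 0.09, adjusted p = 0.823) and -0.05 ± 0.14 for Tgfbr1 (-0.35 to 0.25, adjusted p = 0.927). Leaving out WT1 therefore turned the sign of both values.

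Smad2 and Smad3, the SMADs that the TGF-beta receptor phosphorylates, moved in opposite ways in WT1 and were not called. Smad3 had 93.6, 98.98 and 109 CPM in Cd48 KO libraries, against 37.8, 111 and 97.7 CPM in WT libraries. Smad2 had 98.8, 86.6 and 84.0 CPM in KO libraries, against 146, 100.2 and 90.7 CPM in WT libraries. The groups overlapped in both genes, with WT1 the lowest library for Smad3 and the highest for Smad2. The log2 fold change of Smad3 was 0.29 ± 0.37 SE with all libraries (adjusted p = 0.768 by edgeR) and -0.05 ± 0.09 without WT1 (95% interval -0.24 to 0.15, adjusted p = 0.882), a change of sign. That of Smad2 was -0.32 ± 0.20 with all libraries (adjusted p = 0.690) and -0.08 ± 0.09 without WT1 (-0.28 to 0.11, adjusted p = 0.762).

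Smad4, the partner shared by all receptor-activated SMADs, had the widest spread. It had 10.5, 6.21 and 7.23 CPM in Cd48 KO libraries, against 73.8, 12.8 and 9.30 CPM in WT libraries. These stood on 172, 101 and 128 counts in KO libraries and 1057, 192 and 259 counts in WT libraries. WT1 was several times above every other library, and KO1 lay above WT3, so the groups overlapped. The fitted log2 fold change was -2.00 ± 0.80 SE with all libraries (unadjusted p = 0.0431, adjusted p = 0.690 by edgeR) and -0.46 ± 0.24 without WT1 (95% interval -0.98 to 0.06, unadjusted p = 0.0785, adjusted p = 0.439). Most of the value with all libraries thus rested on WT1, and without WT1 it ran from -0.697 (KO1 also left out) to -0.225 (WT2 also left out).

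Smad7, the inhibitory SMAD, had the lowest group mean of the 10 in CPM in both genotypes, though in WT1 Tgfbr1 was lower. It had 6.05, 3.75 and 4.97 CPM in Cd48 KO libraries, from 99, 61 and 88 counts, against 17.6, 6.14 and 4.59 CPM in WT libraries, from 252, 92 and 128 counts. WT1 was again the highest library, and the other 5 overlapped. Fitted log2 fold changes were -0.93 ± 0.53 SE with all libraries (adjusted p = 0.690 by edgeR) and -0.11 ± 0.27 without WT1 (95% interval -0.69 to 0.47, adjusted p = 0.914). The interval without WT1 spans folds of 0.621 to 1.38, on the few counts given above.

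The SKI repressors were little affected by WT1. Ski had 21.6, 17.2 and 20.4 CPM in Cd48 KO libraries, against 21.7, 22.0 and 22.1 CPM in WT libraries. The WT libraries were nearly identical (coefficient of variation 0.980%), and all KO values fell below them, KO1 by a narrow margin. These stood on 353, 280 and 361 counts in KO libraries and 311, 329 and 617 in WT libraries. Counting noise at such counts is usually wider than that WT spread, so the separation need not hold in other samples. Its log2 fold change was -0.15 ± 0.15 SE with all libraries (adjusted p = 0.718 by edgeR) and -0.16 ± 0.14 without WT1 (95% interval -0.46 to 0.14, adjusted p = 0.688). Leaving out KO2, the lowest library, brought these to -0.0645 and -0.0741. Skil, itself a target gene of the pathway, had 133, 124 and 116 CPM in KO libraries, against 103, 94.4 and 120 CPM in WT libraries. The groups overlapped only through KO3 and WT3. The log2 fold change of Skil was 0.23 ± 0.13 with all libraries (adjusted p = 0.690) and 0.21 ± 0.10 without WT1 (95% interval -0.02 to 0.44, adjusted p = 0.412). Without WT1, that value was 0.0458 when WT2 was also left out and 0.394 when WT3 was.

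Of the 10 genes, Furin was the one with all KO libraries above all WT libraries and Ski the one with all KO libraries below. Groups that did not overlap made up 19.3% of all tested genes with WT1 and 30% without it. Separation upwards was found in 10.2% of all tested genes with WT1 and 15.8% without it, and downwards in 9.11% and 14.3%. With 1 gene in each direction among 10, these shares are near those of all genes.

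**Figure D2:**
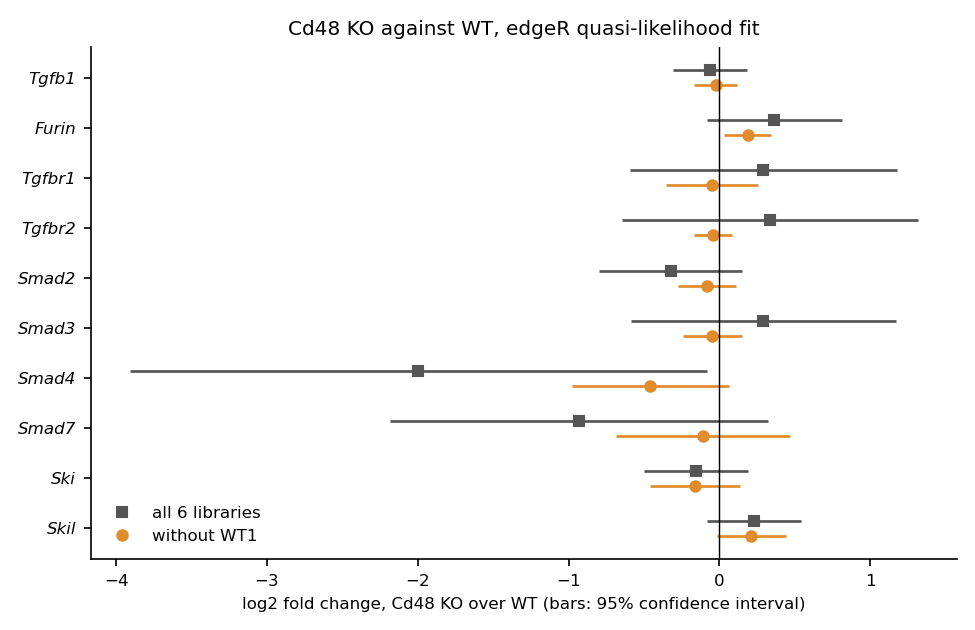
Log2 fold change of each gene, Cd48 KO over WT, with bars for the 95% interval of the edgeR fit, with all 6 libraries (squares) and without WT1 (circles). The intervals of Tgfbr1, Tgfbr2, Smad3, Smad4 and Smad7 narrow most when WT1 is left out, the value of Smad4 moving to -0.46, against -2.00 with all libraries, and no gene passed the adjusted threshold in either fit.

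The standard errors of the 10 genes ran from 0.10 to 0.80 with all libraries and from 0.06 to 0.27 without WT1, with medians of 0.283 and 0.0969, against medians of 0.235 and 0.146 over all tested genes. Among the KO libraries alone the coefficient of variation was 3.42% for Tgfbr2, 11.4% for Ski and between these for 6 others, while the low-count genes Smad7 and Smad4 reached 23.3% and 28.1%. Among all WT libraries it ran from 0.980% for Ski and 4.05% for Tgfb1 to 113% for Smad4.

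The 10 genes did not move together in WT1, nor did all follow its length pattern. Smad3, Tgfbr1 and Furin, with transcripts of 4000 to under 6000 bases, were lower in WT1 than the mean of WT2 and WT3 by log2 values of -1.46, -1.44 and -0.62, beside a median of -0.32 for tested genes of that length. Ski, of the same length class, stood at -0.02 and Smad7 at 1.71. Tgfbr2 and Smad2 have transcripts of nearly the same length, 8092 and 8089 bases, in a class with a median of -0.91. Tgfbr2 was at -1.70 and Smad2 at 0.62, which is above 92.0% of that class. Smad4, with 3384 bases in a class whose median was 0.03, was at 2.74. That was exceeded or matched by 26 of 13317 tested genes (0.195%, Smad4 included), and 98.4% of tested genes lay below Smad7. Tgfb1 at 0.10 and Skil at -0.04 differed little.

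**Figure D3:**
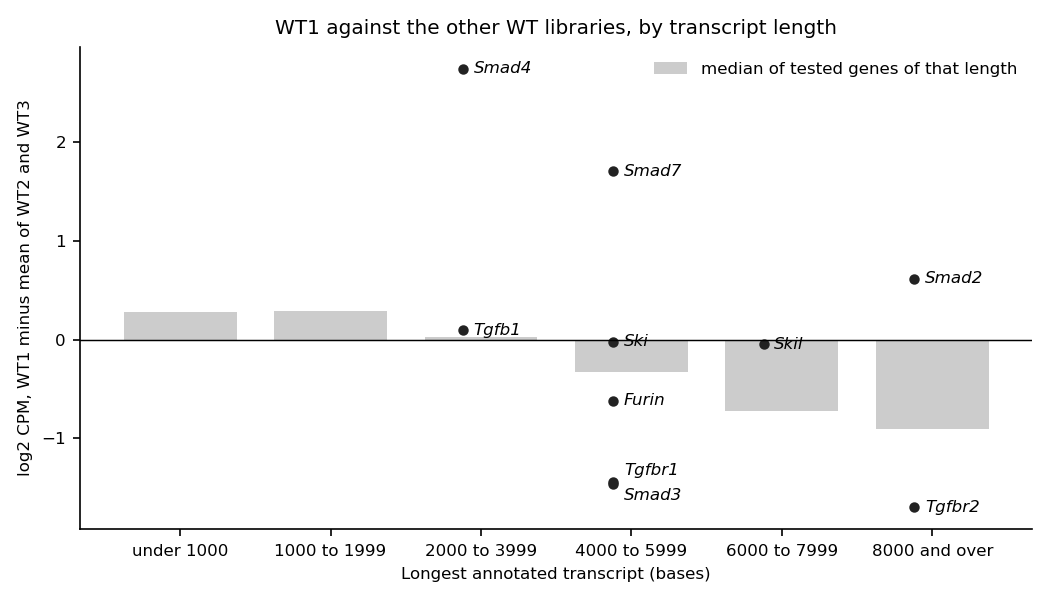
Log2 difference in CPM between WT1 and the mean of WT2 and WT3 (vertical axis) against the length class of the longest annotated transcript in bases (horizontal axis), with grey bars for the median of all tested genes of a class and points for the 10 genes. The bars fall to -0.91 in the longest class, beside 0.28 in the shortest, while Smad4, Smad7 and Smad2 lie well above the bar of their class and Tgfbr1, Tgfbr2 and Smad3 lie well below.

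Levels can be set against each other only per length, and were therefore divided by the length of the longest annotated transcript. In Cd48 KO libraries the order was Furin (726 ± 53.1 CPM per kilobase, SD, n = 3), Tgfb1 (111 ± 7.18), Tgfbr2 (47.0 ± 1.61), Smad3 (19.8 ± 1.58), Skil (18.5 ± 1.26), Smad2 (11.1 ± 0.976), Ski (3.57 ± 0.407), Tgfbr1 (3.003 ± 0.160), Smad4 (2.36 ± 0.663) and Smad7 (1.15 ± 0.268). Of these neighbours, Smad3 and Skil, Ski and Tgfbr1, and Tgfbr1 and Smad4 overlapped in their ranges over the KO libraries, and the others did not. In WT libraries Furin (563 ± 135), Tgfb1 (116 ± 4.69), Tgfbr2 (37.3 ± 19.5), Smad3 (16.1 ± 7.67), Skil (15.8 ± 1.94) and Smad2 (13.9 ± 3.68) kept that order, followed by Smad4 (9.45 ± 10.7), Ski (3.97 ± 0.0389), Tgfbr1 (2.45 ± 1.15) and Smad7 (2.21 ± 1.66). Smad4, which spanned 2.75 to 21.8 CPM per kilobase over the WT libraries, overlapped Smad2 above and Ski below it, and of the other neighbours Furin and Tgfb1, Tgfb1 and Tgfbr2, and Ski and Tgfbr1 did not overlap. Without WT1 the WT means were 638, 113, 48.5, 20.5, 16.0 and 11.8 CPM per kilobase for Furin, Tgfb1, Tgfbr2, Smad3, Skil and Smad2, then 3.99 for Ski, 3.27 for Smad4, 3.11 for Tgfbr1 and 1.26 for Smad7. With the mean length of a gene's transcripts in place of the longest, 3 of 10 genes in KO and 4 of 10 in WT kept their place, Furin and Tgfb1 at the head among them. The longest Tgfb1 transcript is a retained-intron form.

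Ratios of counts within a library do not depend on its scaling, and 5 were read as a description, without correction for length. Furin over Tgfb1, the convertase over its substrate, was 16.7, 14.1 and 13.1 in Cd48 KO libraries, against 7.63, 11.7 and 13.5 in WT libraries. KO3 fell below WT3, so the groups overlapped. Smad2 over Smad3 was 1.06, 0.875 and 0.768 in KO libraries, against 3.87, 0.903 and 0.928 in WT libraries. Smad7 over Smad3, the inhibitory over an activating SMAD, was 0.0646, 0.0379 and 0.0454 in KO libraries, against 0.466, 0.0553 and 0.0470 in WT libraries. In both of these WT1 alone was far from the other libraries, and the rest overlapped between genotypes.

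Tgfbr1 over Tgfbr2 was 0.0429, 0.0461 and 0.0474 in Cd48 KO libraries, against 0.0538, 0.0452 and 0.0459 in WT libraries. Both receptor genes were low in WT1, and their ratio there, 0.0538, was the highest, outside the range of 0.0429 to 0.0474 in the other libraries. Skil over Ski was 6.16, 7.23 and 5.68 in KO libraries, against 4.75, 4.30 and 5.42 in WT libraries. This was the one ratio of the 5 whose groups did not overlap, with a difference in mean log2 ratio of 0.40 with all libraries and 0.39 without WT1. It was between 0.30 and 0.48 when any 1 library was left out, and since Ski and Skil were chosen by name and their own values were known, no test was made of it. KO3 and WT3 were close. For scale, groups did not overlap in 19.3% of single genes with WT1 and in 30% without it, and the share among ratios was not taken.

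**Figure D4:**
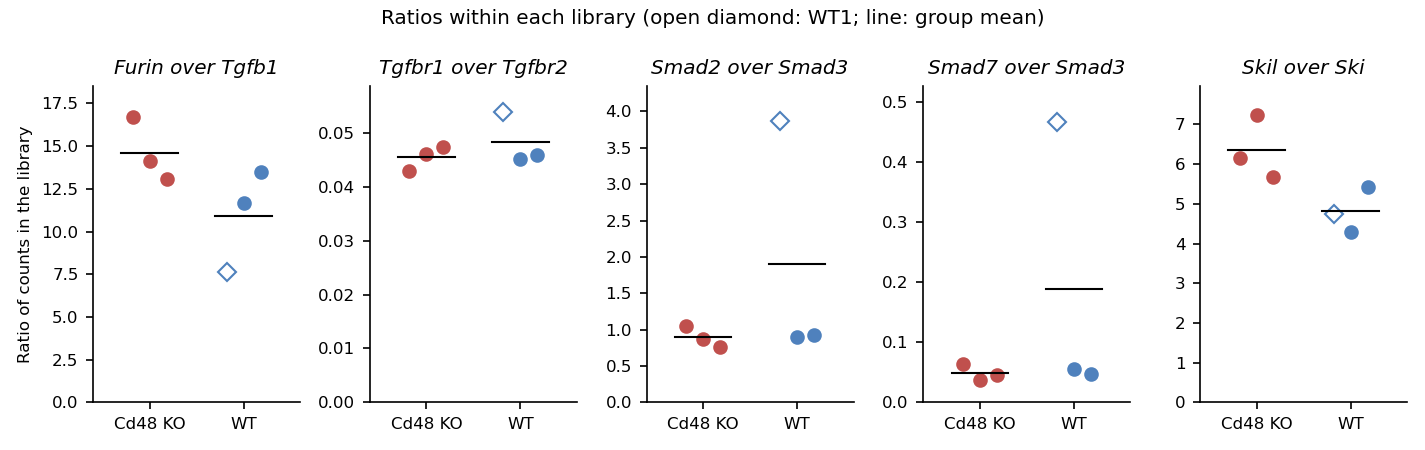
The 5 ratios of counts within each library on linear axes from 0, Cd48 KO on the left and WT on the right, WT1 as an open diamond, with lines at the group means. The Skil over Ski panel has all KO libraries, from 5.68 to 7.23, above all WT libraries, from 4.30 to 5.42, and WT1 stands alone in the panels of Smad2 and Smad7 over Smad3.

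Over the 8676 genes that averaged 10 CPM or more, the profile over the 6 libraries most like that of Tgfb1 was that of Dennd1c, with a mean absolute log2 difference of 0.0129 after centring, followed by Tmem161a (0.0133) and Cox6a1 (0.0198). For Furin the nearest were Zfp260 (0.0304), Ahrr (0.0346) and Champ1 (0.0346). Zfp260 had 34.4, 30.5 and 30.1 CPM in Cd48 KO libraries, against 16.8, 26.6 and 29.1 CPM in WT libraries, lowest in WT1 as Furin was.

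The rest of the pathway was read from 9 lists covering its steps. With all 6 libraries no gene of any list was called, with list medians between -0.18 (latency and activation, 13 tested) and 0.33 (other SMADs and adaptors, 9 tested). Without WT1, 1.82% of all tested genes were called. No share over the lists was taken, since they have genes such as Skil in common, and the number tested is given with each list. The 5 genes called in them were Bmp7, Inhba and Cd9, lower in Cd48 KO, and Rbl1 and Tnfrsf9, higher. Each was lost from the calls when a further library was left out, as given with its values. In the same comparison, of the 12 ILC2 markers, Il5 and Il2ra were called higher in Cd48 KO. Their log2 fold changes were 0.29 (adjusted p = 0.0332 by edgeR) and 0.31 (adjusted p = 0.0200). The other ILC2 markers were not called and went both ways. Thy1 (-0.47), Gata3 (-0.23), Areg, Icos and Klrg1 were negative, and Il13 (0.40), Id2, Il7r, Il1rl1 and Rora were positive. Cd3g (-0.92, adjusted p = 0.00690) and Trbc2 (-0.39, adjusted p = 0.0257) of the T cell list and Epcam of the epithelial list (-0.83, adjusted p = 0.0347) were called lower. No marker gene was called with all libraries, and the part of these shifts in the pathway calls was not tested.

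The list of other superfamily ligands gave 2 falls and 0 rises among 9 tested genes without WT1, with a median log2 fold change of 0.02. Its tested genes include Bmp1, a protease, and Fstl3, an activin antagonist, at 0.09 and 0.79. The count and the median are therefore not those of ligands alone. Bmp7, a bone morphogenetic protein, had 47.0, 36.7 and 39.3 CPM in Cd48 KO libraries, against 40.6, 62.6 and 57.0 CPM in WT libraries. Inhba, which encodes the activin A subunit, had 4.76, 3.63 and 2.31 CPM in KO libraries, against 3.70, 9.55 and 7.43 CPM in WT libraries. In both, WT2 and WT3 were above all KO libraries and WT1 lay within the KO range. Bmp7 fell by 0.54 on the log2 scale without WT1 (SE 0.11, adjusted p = 0.0300 by edgeR) and Inhba by 1.24 (SE 0.28, adjusted p = 0.0467), while with all libraries both had an adjusted p of 0.690. Without WT1, the adjusted p of Bmp7 ran from 0.0679 to 0.164 and that of Inhba from 0.0884 to 0.227 when KO2, KO3, WT2 or WT3 was also left out.

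No gene of the latency and activation list (13 tested) was called without WT1. Its most abundant genes were Hsp90ab1, a cytosolic chaperone, and Itgb3, the beta 3 integrin subunit that pairs with alpha v to bind the latency peptide. Itgb3 had 555, 540 and 472 CPM in Cd48 KO libraries, against 201, 516 and 504.3 CPM in WT libraries. Like the receptors, it was low in WT1 only, and its log2 fold change without WT1 was 0.04 (adjusted p = 0.865 by edgeR).

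The list of other convertases and furin regulators (8 tested) also held no call without WT1, with a median log2 fold change of -0.08. It includes Gbp2 and Gbp5, which have been described to inhibit furin. These stood at -0.74 (adjusted p = 0.0628 by edgeR) and -0.13 (adjusted p = 0.919), so the median is not that of convertases and helpers alone. Pcsk1, the prohormone convertase of neuroendocrine cells, had 602, 613 and 618 CPM in Cd48 KO libraries, against 360, 575 and 626 CPM in WT libraries. Its groups overlapped, and its log2 fold change without WT1 was 0.03 (adjusted p = 0.891 by edgeR). Pacs1, which sorts furin back to the trans-Golgi network, had 300.01, 269 and 278 CPM in KO libraries, against 183, 279 and 288 CPM in WT libraries.

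Of the other receptors and co-receptors, 9 were tested without WT1 and 0 called, with a median of -0.09. The most abundant were the co-receptor endoglin (Eng), at 23.0, 27.1 and 29.0 CPM in Cd48 KO libraries against 30.9, 24.4 and 25.7 CPM in WT libraries, and the activin receptor Acvr2a, at 21.4, 22.0 and 18.01 CPM against 9.99, 22.3 and 25.1 CPM in WT. Both overlapped between genotypes. Other SMADs and their adaptors (9 tested, 0 called, median 0.03) were led by Sptbn1, a beta spectrin that binds SMADs, and by Nup214, a nuclear pore protein. Sptbn1 had 141, 145 and 150.03 CPM in KO libraries, against 43.0, 123 and 142 CPM in WT libraries, again with WT1 alone far below.

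Feedback and turnover regulators gave 25 tested genes and 0 calls, with a median of 0.02. Fkbp1a, which keeps the unliganded type I receptor inactive, had 487, 496 and 519 CPM in Cd48 KO libraries, against 710, 478 and 480 CPM in WT libraries. Here WT1 was the highest library. Usp4, a deubiquitinase that acts on the type I receptor, stayed between 274 and 278 CPM in KO libraries and between 251 and 289 CPM in WT libraries.

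The partners of SKI and of SMADs gave 1 rise and 0 falls among 21 tested genes without WT1, with a median of 0.01. Ski and Skil themselves are on this list, at -0.16 and 0.21, so the count and the median are not those of partners alone. Rbl1 (p107), a pocket protein that binds E2F4 and has been found with SMAD3, had 128, 138 and 129 CPM in Cd48 KO libraries, against 82.5, 98.3 and 102 CPM in WT libraries. All KO libraries were above all WT libraries, WT1 included. Rbl1 rose by 0.40 on the log2 scale without WT1 (SE 0.07, adjusted p = 0.0170 by edgeR), and its value with all libraries was 0.48 (adjusted p = 0.689). Without WT1 and 1 more of KO2, KO3, WT2 or WT3, its adjusted p was between 0.0666 and 0.116. The most abundant of this list, the deacetylase Hdac1 and the cell cycle factor E2f4, were not called, with log2 fold changes of 0.03 and 0.10 without WT1.

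Genes that respond to TGF-beta in other cells gave 1 rise and 1 fall among 23 tested genes without WT1, with a median of 0.09. Smad7 and Skil belong to this list too. Tnfrsf9, which encodes the costimulatory receptor 4-1BB, had 401, 469 and 387 CPM in Cd48 KO libraries, against 112, 234 and 177 CPM in WT libraries. Every KO library was well above every WT library. Its log2 fold change was 1.03 without WT1 (SE 0.14, adjusted p = 0.0321 by edgeR) and 1.26 with all libraries (SE 0.26, adjusted p = 0.577), and without both WT1 and KO3 the adjusted p was 0.0695.

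Cd9, a tetraspanin of the cell surface, had 3.30, 3.26 and 2.14 CPM in Cd48 KO libraries, against 12.4, 5.34 and 8.51 CPM in WT libraries. These stood on 38 to 54 counts in KO libraries and 80 to 237 in WT libraries, without overlap in CPM. Cd9 fell by 1.27 on the log2 scale without WT1 (SE 0.29, adjusted p = 0.0445 by edgeR), and was not called with all libraries (adjusted p = 0.659). Without WT1 and 1 more of KO2, KO3 or WT3 its adjusted p was between 0.126 and 0.335. Cd9 is also expressed by many epithelial cells, whose marker sum was lower in every KO library, and the part of such cells in its difference was not tested.

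**Figure D5:**
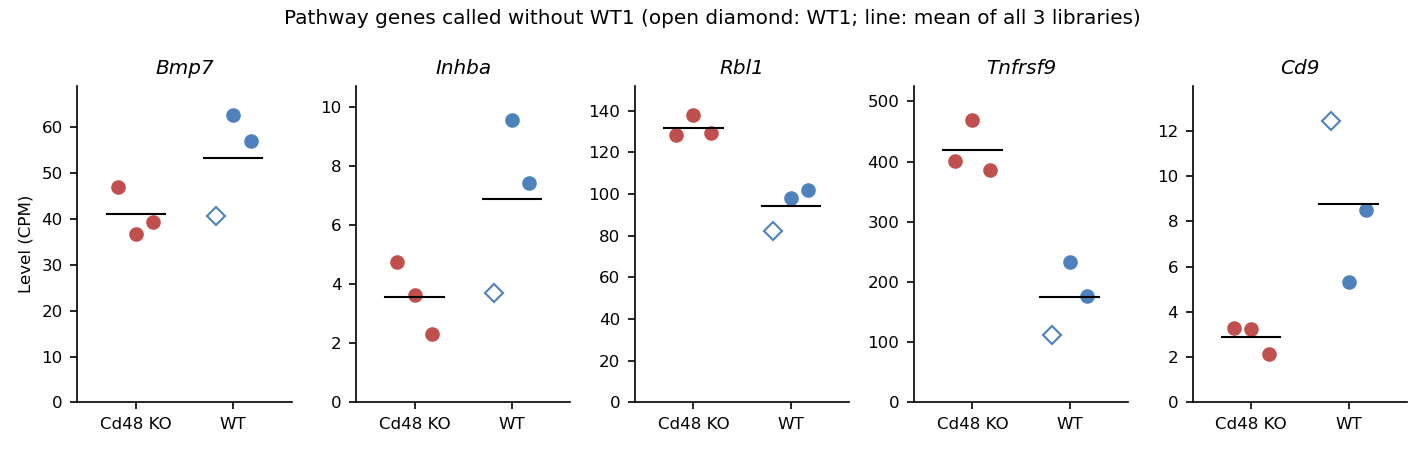
Levels in CPM of the 5 pathway genes called without WT1, one point per library on linear axes from 0, Cd48 KO on the left and WT on the right, lines at the means of all 3 libraries and WT1 as an open diamond. Rbl1 and Tnfrsf9 have all KO libraries above all WT libraries, Cd9 has them below, and in Bmp7 and Inhba WT1 lies among the KO libraries.

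The most abundant of the responsive genes were Cxcr6, a chemokine receptor, and Id2, a helix-loop-helix regulator that innate lymphoid cells need. Cxcr6 had 1982, 2066 and 1975 CPM in Cd48 KO libraries, against 2925, 2248 and 2146 CPM in WT libraries. All KO values were below all WT values, yet Cxcr6 was not called, with a log2 fold change of -0.28 with all libraries (adjusted p = 0.690 by edgeR) and -0.13 without WT1 (adjusted p = 0.235). Id2 had 984, 1044 and 985 CPM in KO libraries, against 1098, 943 and 859 CPM in WT libraries, with overlap between the groups.

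Among the non-SMAD branches 16 genes were tested and 0 called without WT1, with a median of -0.02. The small GTPase Rhoa had 377, 367 and 341 CPM in Cd48 KO libraries, against 391, 407 and 408 CPM in WT libraries. Its KO values all lay below its WT values, and its log2 fold change without WT1 was -0.17 (adjusted p = 0.202 by edgeR). The adaptor Shc1, at 181, 184 and 198 CPM in KO libraries against 165, 170.1 and 181 CPM in WT libraries, overlapped between genotypes at its edges.

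On GRCm38 the 10 genes lie on 5 chromosomes, none of them chromosome 1, which carries Cd48. Tgfb1 spans chr7:25687002-25705077 and Furin chr7:80388585-80405436, Tgfbr1 spans chr4:47353222-47414931 and Ski chr4:155154075-155222592, Smad3 spans chr9:63646767-63757994 and Tgfbr2 chr9:116084293-116175360, and Skil spans chr3:31095058-31122577. Smad2, Smad4 and Smad7 lie on chromosome 18. All 10 are annotated as protein-coding. Besides Furin, Smad4 is overlapped by an annotated gene on the other strand, a processed pseudogene that was not among the tabled genes.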

How the data were processed

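The deposited table holds estimated counts per gene for 6 libraries, without normalization as judged from its values, of which 60.2% of the non-zero ones are whole within 0.001. Tools named by the submitters' processing notes are Partek 10.0, STAR 2.7.8 and DESeq2, with the build mm10. For the counter, the annotation and the use of strand, nothing is given in the sources used here. Per the labels' protocols, cDNA came from a low-input SMARTer kit, which amplifies by PCR. The authors' estimated counts were rounded to whole numbers and tested in R 4.3.3 with edgeR 4.0.16: robust quasi-likelihood fit, TMM, genotype as the only term, filterByExpr with a minimum count of 10 and a minimum total of 15, Benjamini-Hochberg adjustment over all tested genes and calls at an adjusted p under 0.05. SE was obtained by dividing the absolute log2 fold change by the square root of F, and intervals are at 95%. CPM uses TMM-adjusted library sizes. Total counts were 16336449, 16135210 and 17600475 in KO1 to KO3 and 14931769, 14928623 and 27450400 in WT1 to WT3, so the precision is lowest for genes with few counts, such as Smad7 with 61 to 252. Replicates were compared by a chi-square of counts, which per gene ran from 5.52 to 149, so no pair agreed within sampling noise. The design text speaks of duplicates, and 3 libraries per genotype were used here.

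The comparison without WT1 filters and normalizes anew. Lengths, positions and overlaps came from GENCODE vM21 (GRCm38), to which 17022 of the symbols (97.6%) matched and 416 did not, and promoters came from RefSeq (GRCm38.p6). Fits were tested on simulated data first. With all libraries, 0% of simulated 1.5-fold and 14.1% of 2-fold changes were called, and without WT1 36.9% and 59.1%. Changes of such size can therefore go uncalled. False calls numbered 6 with all libraries and 20 without WT1. The 10 genes, the 9 pathway lists, the 12 marker lists and the comparison without WT1 were chosen with earlier results of these data known. Named genes are Cd48, the 10 genes, up to 4 called and the 2 most abundant genes of each pathway list, the 3 nearest profiles to Tgfb1 and Furin, and genes overlapping one of the 10. Alternatives were other scaling factors, a filter at a mean of 10 CPM or none, DESeq2 1.42.0, limma 3.58.1 (voom, with and without quality weights), a fit without the robust option, a replicate block, another threshold, other transcript lengths and leaving out each library. The sums of the marker lists not described above were as follows: B cell (25.0 to 30.6 CPM in Cd48 KO, 25.9 to 47.5 in WT, mostly Cd79b and Ighm), mast cell and basophil (272 to 275 in KO, 114 to 281 in WT, nearly all Kit), endothelial (41.7 to 44.0 in KO, 30.7 to 41.5 in WT, mostly Pecam1), fibroblast (6.17 to 7.44 in KO, 9.15 to 12.4 in WT, nearly all Thy1), platelet (0.395 to 1.23 in KO, 0.0698 to 0.933 in WT), neutrophil (0 to 0.307 in KO, 0 to 0.287 in WT), NK and ILC1 (0.183 to 1.17 in KO, 0 to 0.861 in WT) and ILC3 (0.339 to 1.04 in KO, 0.140 to 1.13 in WT).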

Additional observations from a re-analysis of the deposited data

How the results depend on the processing

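None of the 10 genes was called under any alternative run, and the lowest adjusted p among them was 0.208 with all libraries (Smad4, DESeq2) and 0.109 without WT1 (Skil, with WT3 also left out). Over all genes the calls depended on the tool: the 4 with all libraries became 108 with DESeq2, 95 with voom and quality weights and 0 with a replicate block (776 at an unadjusted p under 0.05), and ran from 0 to 248 when 1 library was left out, with 0 without KO1 (662 unadjusted), 0 without KO3 (335 unadjusted) and 248 without WT1. The 248 without WT1 became 412 with DESeq2, 157 without the robust option, 570 with a replicate block, 420 at an adjusted p under 0.1, and 65 to 517 with a further library left out. Deviations of same-numbered KO and WT libraries from their group means correlated at -0.046, -0.036 and -0.009. The WT mean includes WT1, which lies far from WT2 and WT3, so these values cannot show whether replicate numbers pair the libraries. Without WT1, the block ended the call of Cd9 (adjusted p = 0.0962). In that fit KO1 is alone in its block and adds nothing to the genotype term. The genotype term there rests on the same libraries as with KO1 left out (517 calls), so the block is not a separate check. The log2 values were close, at -1.35 and -1.37 for Cd9, but the tests differed. Cd9 stayed called with KO1 left out (adjusted p = 0.0498 by edgeR).

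The sign of some values turned. With all libraries, voom with quality weights gave Tgfbr1 -0.00817 and Smad3 -0.0187 on the log2 scale, and leaving out 1 library gave -0.0489 to 0.556 for Tgfbr1, -0.0427 to 0.614 for Tgfbr2 and -0.0461 to 0.570 for Smad3. Without WT1, the replicate block gave Tgfb1 0.0198 and Smad3 0.00983, and leaving out a further library gave -0.0843 to 0.0203 for Tgfb1, -0.119 to 0.0196 for Tgfbr1, -0.104 to 0.0107 for Tgfbr2, -0.144 to 0.0402 for Smad3 and -0.322 to 0.0951 for Smad7. In the order of levels per kilobase, 3 genes in Cd48 KO and 4 in WT kept their place with mean transcript lengths. The Cd9 and Inhba calls were also lost without a filter (adjusted p 0.0532 and 0.0544), with voom (0.0689 and 0.0651), with quality-weighted voom (0.0578 and 0.0509) and without the robust option (0.0761 and 0.0765). The Inhba call was lost with RLE factors (0.0507) and that of Bmp7 without the robust option (0.0578). A mean of at least 10 CPM leaves Smad7, and without WT1 also Smad4, Cd9 and Inhba, untested.

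Smad4 and Smad7 had the widest intervals. For the receptors and SMADs WT1 carries most of the spread among WT libraries, and without it WT rests on 2 libraries. Estimated counts hide how shared reads were divided, and strand could not be used.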
